A study of Mus musculus with 24 samples.

Results

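The comparison described here sets Srcap mutant against wild-type (WT) hematopoietic stem and progenitor cells (HSPCs) taken from mouse bone marrow 20 weeks after competitive transplantation. It holds 4 of the 24 RNA-seq libraries of the study, 2 Srcap mutant and 2 WT, chosen by their labels. All 4 come from the C57BL6/J strain and from donor CD45.2+ cells, with 30000 sorted HSPCs going into each RNA extraction. The file headers call the sorted cells LSK, the usual name for lineage-negative, Sca-1-positive, Kit-positive cells, and call the mutants het. The mutant allele, the ages of the mice, the number of recipients behind a library and the remaining recipient cells are not stated in the labels or headers. Another 12 HSPC libraries, mutant and WT in duplicate, came from untreated mice, from mice injected with doxorubicin (12 hours), and from mice 2 weeks after transplantation. These entered the same fit and share its estimate of the spread, and their levels enter the differences of genotype effects between conditions.

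SRCAP is an ATP-dependent remodeller that exchanges canonical histone H2A for the variant H2A.Z in nucleosomes, above all around promoters. LSK cells include the stem cells that rebuild blood after transplantation, and in a competitive transplant donor cells share the host's marrow with competitor cells. The group of genes that the results turn on encodes cytosolic chaperones. HSP70-family proteins bind unfolded chains, J-domain proteins (the Dnaj genes) deliver clients to them, HSP110 proteins such as HSPH1 act as nucleotide exchange factors that let clients go, and HSP90 with its co-chaperones finishes the folding of kinases and receptors. Many of these genes are switched on by heat shock factor 1, which binds repeats of the letters GAA in alternating orientation.

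The promoters of 4 chaperone genes are shown first, because these are the members at unadjusted p under 0.05 whose window holds that repeat. The windows run from 250 bases before to 50 bases after a RefSeq transcription start (GRCm38.p6), 5′ to 3′ on the gene's strand. Capitals mark matches to GAANNTTC or TTCNNGAA, both of which read the same on either strand and may overlap to make the longer GAANNTTCNNGAA or TTCNNGAANNTTC. Hsph1 is shown by 1 of its 2 overlapping windows and Dnaja1 by the 1 of its 3 windows with a match.
Hsph1, chr5:149636287-149636586, minus strand: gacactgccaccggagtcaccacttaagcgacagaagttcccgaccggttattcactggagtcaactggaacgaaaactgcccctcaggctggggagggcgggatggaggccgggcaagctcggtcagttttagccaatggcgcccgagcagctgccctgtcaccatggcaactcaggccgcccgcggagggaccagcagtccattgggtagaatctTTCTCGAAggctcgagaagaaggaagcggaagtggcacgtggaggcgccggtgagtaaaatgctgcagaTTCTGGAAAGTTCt
Dnaja1, chr4:40722218-40722517, plus strand: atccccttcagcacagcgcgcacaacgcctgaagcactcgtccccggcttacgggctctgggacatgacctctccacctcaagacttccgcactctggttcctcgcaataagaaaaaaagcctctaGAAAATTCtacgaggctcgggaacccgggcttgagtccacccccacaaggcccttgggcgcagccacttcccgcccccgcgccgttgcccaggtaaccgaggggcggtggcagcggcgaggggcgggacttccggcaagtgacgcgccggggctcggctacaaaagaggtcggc
Hspa1b, chr17:34959189-34959488, minus strand: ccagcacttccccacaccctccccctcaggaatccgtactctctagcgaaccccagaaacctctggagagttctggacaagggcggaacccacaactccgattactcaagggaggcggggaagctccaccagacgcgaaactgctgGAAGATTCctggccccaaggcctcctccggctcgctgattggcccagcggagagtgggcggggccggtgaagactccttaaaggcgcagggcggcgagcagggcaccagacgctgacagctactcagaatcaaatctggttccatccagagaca
Chordc1, chr9:18292017-18292316, plus strand: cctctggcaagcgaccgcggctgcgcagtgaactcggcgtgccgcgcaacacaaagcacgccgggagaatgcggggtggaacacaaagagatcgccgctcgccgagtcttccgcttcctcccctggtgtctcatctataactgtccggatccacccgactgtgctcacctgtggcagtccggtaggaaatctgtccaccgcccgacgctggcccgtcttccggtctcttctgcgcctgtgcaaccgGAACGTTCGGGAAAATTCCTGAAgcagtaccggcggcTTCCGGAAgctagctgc

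Of the 37 chaperone genes listed, 30 had a window, 13 of these 30 held the shorter match and 3 held the longer one. Among all genes with a window, 17% held the shorter match in at least 1 window and 0.662% the longer one, and over all 32851 windows of 300 bases the shares were 15.1% and 0.603%. Of the 9 chaperone genes at unadjusted p under 0.05, Hsph1, Dnaja1, Hspa1b and Chordc1 held a match, the longer one in Hsph1 and Chordc1. No match was found in the windows of Ahsa2, Dnajb1, Bag1 and Stip1, and Hspa8 had no window. These are matches of letters only.

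The 20-week libraries held between 52.3 and 78.4 M counts, where M stands for 10 to the power 6: 70.8 and 52.3 M in mutant, 66.1 and 78.4 M in WT. Of these counts, 16.9 and 24.6% in mutant libraries and 19.7 and 26.6% in WT libraries came from immunoglobulin genes with Jchain, against 0.843 to 6.2% in the other HSPC libraries. Those genes were removed before scaling. Values below are CPM, counts scaled to a fixed library total, in the remaining genes after TMM scaling. The HSPC markers summed to 2880 and 2950 CPM in mutant and 3160 and 3120 CPM in WT, and Kit, Ly6a and Cd34 were read in every library. B cell markers summed to 1500 and 1530 CPM in mutant and 1260 and 1520 CPM in WT. Plasma cell markers summed to 785 and 1280 CPM in mutant and 931 and 1360 CPM in WT, above the 196 to 509 CPM of the other HSPC libraries, so RNA of mature B-lineage cells was present in both genotypes. In bulk RNA, fewer cells of a type and less RNA per cell cannot be told apart. The p-values rest on the spread between duplicates in all 16 HSPC libraries, not in these 4 alone. Nothing in the labels says that duplicates came from separate recipients, so that spread may be technical.

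Srcap itself, the mutated gene (chr7:127111155-127160391, GRCm39), had 3.46 and 10.4 CPM in mutant libraries and 7.38 and 9.97 CPM in WT libraries. The mutant libraries lay on either side of the WT ones. The log2 change was -0.33 ± 0.35 (SE, n = 2 each). Leaving out mutant replicate 1 turned it to 0.27, and leaving out mutant replicate 2 gave -1.35, so 1 library sets its direction. Transcript level gives no check of the genotype where an allele leaves the message in place. Of 20 genes encoding SRCAP and related TIP60 complex subunits, H2A.Z or its chaperones, 9 were higher and 11 lower, with a median log2 change of -0.04, and none was at unadjusted p under 0.05. H2afz, which encodes the main H2A.Z protein, had 316 and 215 CPM in mutant and 283 and 303 CPM in WT. Vps72, whose product carries the H2A.Z dimer within the complex, had 51.0 and 50.5 CPM in mutant and 47.7 and 51.5 CPM in WT.

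Among 19121 genes tested with edgeR's quasi-likelihood test, 1 passed an adjusted p of 0.05, which is 0.00523%. The gene was Hsph1 (chr5:149537752-149559841, GRCm39), encoding the large HSP110 chaperone. It had 209 and 228 CPM in mutant libraries and 99.9 and 92.5 CPM in WT libraries. Both mutant libraries stood well above both WT libraries, and duplicates lay close together. The means were 219 ± 13.2 CPM in mutant and 96.2 ± 5.27 CPM in WT (SD, n = 2 each), a 2.27-fold rise, with a log2 change of 1.18 ± 0.16 and an edgeR adjusted p of 0.0107. Hsph1 was called without either mutant library but not without WT replicate 1 (log2 change 1.24, edgeR adjusted p = 0.143) or WT replicate 2 (1.13, adjusted p = 0.739). No gene was called lower (0.0%). DESeq2 called 13 of 16526 genes (0.0787%), 10 higher and 3 lower. Some of these were near the floor: Capn11, Snord72 and Snord32a had 0 CPM in both WT libraries. At an unadjusted p under 0.05 in edgeR there were 763 genes (3.99%), 362 of them higher (1.89%) and 401 lower (2.1%). Both mutant libraries lay above both WT libraries for 13.6% of genes and below both for 13.2%, and the median log2 change of all genes tested was -0.002.

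Hsph1 was then read with the other cytosolic chaperones, in a list that includes it and was chosen with earlier results of these data known. Of the 37 listed, all tested, 31 were higher and 6 lower in mutant cells, against 48.7% of all genes higher and 49.1% of the 12194 genes of average log2 CPM over 1. The 1 called member was Hsph1, and 9 were higher and 0 lower at unadjusted p under 0.05, against 1.89% and 2.1% of all genes. For 21 of 37 both mutant libraries lay above both WT libraries, and for 1 below both, against 13.6% and 13.2% of all genes. The median log2 change was 0.29. It lay between 0.22 and 0.29 when each of the 4 libraries was left out in turn.

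**Figure D1:**
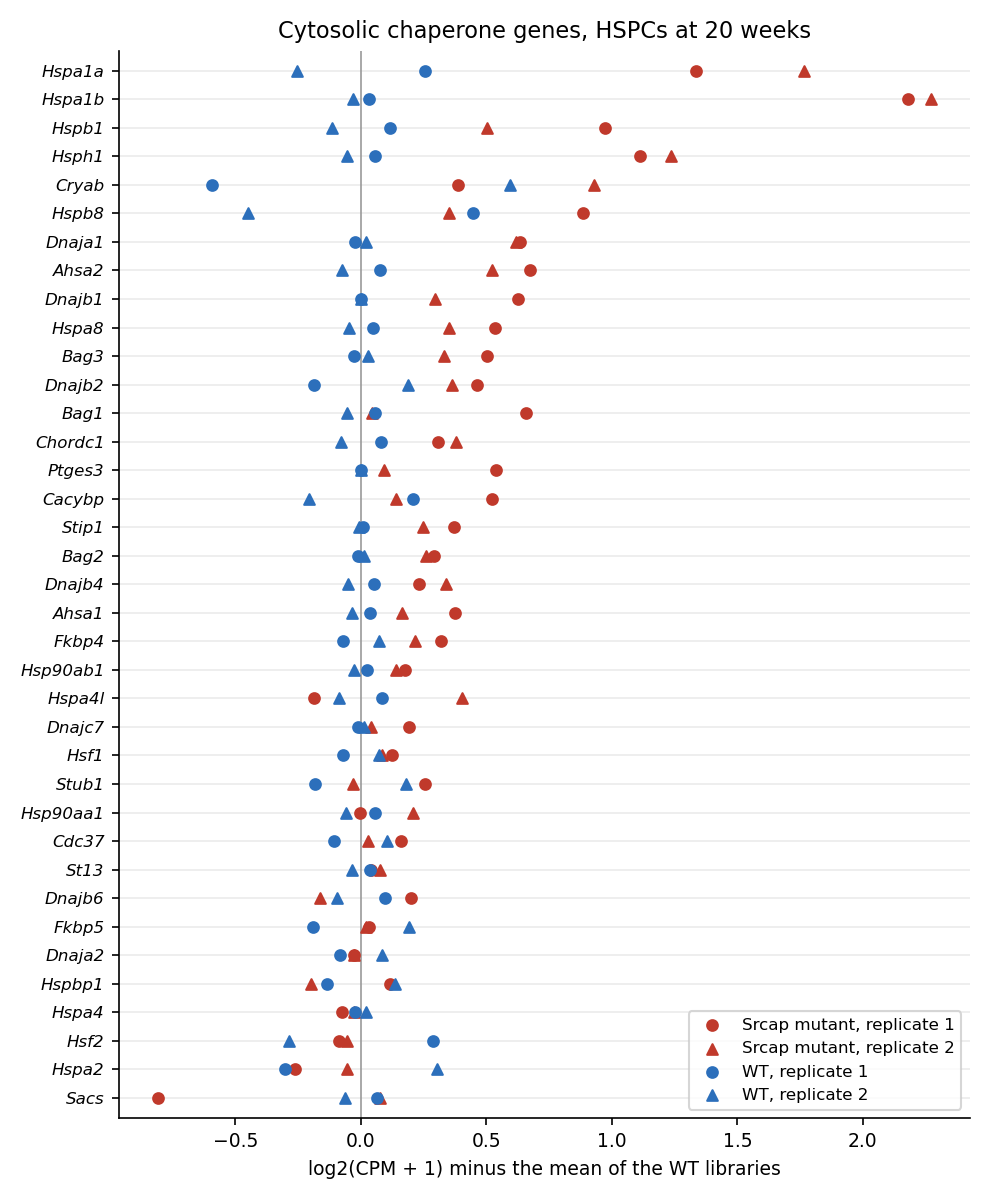
Each row is 1 cytosolic chaperone or co-chaperone gene, and the x axis gives log2(CPM + 1) in each 20-week library minus the mean of the WT libraries, with circles for replicate 1 and triangles for replicate 2. For 21 of the 37 genes both mutant points (red) lie to the right of both WT points (blue).

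Among the HSP70 proteins, Hspa8, the constitutive form, had 2340 and 2060 CPM in mutant and 1670 and 1560 CPM in WT, a log2 change of 0.45 ± 0.15 (unadjusted p = 0.0077). The stress-induced Hspa1b had 9.52 and 10.2 CPM in mutant and 1.37 and 1.27 CPM in WT, a log2 change of 2.90 ± 0.94. Its near-identical neighbour Hspa1a had 2.39 and 3.56 CPM in mutant and 0.603 and 0.124 CPM in WT. Reads of Hspa1a and Hspa1b cannot be assigned to one or the other with certainty, but both stood higher in each mutant library than in either WT library. Hspa4, a relative of Hsph1, had 346 and 358 CPM in mutant and 359 and 370 CPM in WT, and its log2 change of -0.05 ± 0.14 is within the error.

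The J-domain genes that were higher were led by Dnaja1 (chr4:40722150-40737149, GRCm39), with 202 and 200 CPM in mutant and 128 and 132 CPM in WT. Its log2 change was 0.63 ± 0.15, with an edgeR adjusted p of 0.698 and a DESeq2 adjusted p of 0.0335. Another J-domain gene, Dnajb3, was called lower by DESeq2 (log2 change -2.92, DESeq2 adjusted p = 0.0496). It was near the floor, with 0.139 and 0.15 CPM in mutant and 0.859 and 1.33 CPM in WT. Dnajb1, the main J-domain partner of inducible HSP70, had 161 and 128 CPM in mutant and 104 and 104 CPM in WT (log2 change 0.48 ± 0.15). Dnaja2 had 199 and 199 CPM in mutant and 191 and 215 CPM in WT, and its groups overlapped. Among the nucleotide exchange factors, Bag1 had 186 and 121 CPM in mutant and 122 and 113 CPM in WT, and its log2 change of 0.38 ± 0.16 was 0.05 without mutant replicate 1. Bag3 had 24 and 21.2 CPM in mutant and 16.3 and 17 CPM in WT, with an unadjusted p of 0.125.

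The HSP90 genes themselves stood closer together. Hsp90aa1, the inducible form, had 656 and 758 CPM in mutant and 684 and 631 CPM in WT, and the groups overlapped. Hsp90ab1, the constitutive form, had 3510 and 3420 CPM in mutant and 3160 and 3050 CPM in WT, a log2 change of 0.16 ± 0.15. Of the 37 listed chaperones, 9 were higher at unadjusted p under 0.05, against 1.89% of all genes. Of those 9, 3 are co-chaperones of HSP90 and are named for that. Ahsa2, related to the ATPase activator AHA1, had 62.7 and 56.4 CPM in mutant and 41.1 and 36.9 CPM in WT (log2 change 0.61 ± 0.16). Stip1, the adaptor between HSP70 and HSP90, had 254 and 233 CPM in mutant and 197 and 195 CPM in WT. Chordc1 had 121 and 127 CPM in mutant and 103 and 92.3 CPM in WT. Stip1 and Chordc1 were at unadjusted p of 0.0336 and 0.0426. Hsf1, which encodes heat shock factor 1, had 39.2 and 38.1 CPM in mutant and 34.1 and 37.7 CPM in WT.

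Of the 14 genes of the cytosolic chaperonin and prefoldin, which fold actin and tubulin, 12 were higher, with a median log2 change of 0.11. Leaving out mutant replicate 1 left 4 of these 14 higher, with a median of -0.09. Of 12 mitochondrial chaperones 11 were higher, with a median of 0.07, and 6 of 12 were higher without mutant replicate 1. Of 28 endoplasmic reticulum stress genes, 15 were higher and 13 lower, with a median of 0.03. At unadjusted p under 0.05, 3 were higher, against 1.89% of all genes. The median was -0.13 without mutant replicate 2. The 3 genes were Ddit3, Herpud1 and Ppp1r15a. Ddit3, which encodes the stress-induced transcription factor CHOP, had 15.7 and 13.6 CPM in mutant and 6.71 and 8.37 CPM in WT (log2 change 0.96 ± 0.26). Ppp1r15a, whose product restores translation after stress, had 24 and 27.2 CPM in mutant and 19.3 and 18 CPM in WT. Herpud1 overlapped between the groups, with 283 and 383 CPM in mutant and 216 and 289 CPM in WT.

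The genotype effect at 20 weeks was next set against the mean effect in the other 3 HSPC conditions, by the difference of effects in the same fit. No gene passed an edgeR adjusted p of 0.05 (0.0%), 1130 were at an unadjusted p under 0.05 (5.91%), with 578 higher (3.02%) and 552 lower (2.89%). By DESeq2, 20 genes passed. The difference between 20 and 2 weeks gave 0 edgeR calls (0.0%) and 63 DESeq2 calls. Its unadjusted p was under 0.05 for 1679 genes (8.78%), of which 1181 were higher (6.18%) and 498 lower (2.6%). For Hsph1 the mutant-over-WT log2 change was 1.18 at 20 weeks, 0.14 at 2 weeks, 0.31 untreated and -0.06 after doxorubicin. The 20-week effect exceeded the mean of the others by 1.05 ± 0.19, with an edgeR adjusted p of 0.244. Hsph1 stood at 255 and 180 CPM in mutant and 197 and 198 CPM in WT at 2 weeks, so its mutant level at 20 weeks was within the range of cells soon after transplantation. For the 37 chaperones the median effect was 0.29 at 20 weeks, 0.05 at 2 weeks, 0.05 untreated and -0.03 after doxorubicin, and the difference was at unadjusted p under 0.05 for 8 members. That count was 4 without WT replicate 1 and 4 without WT replicate 2 of the 20-week groups.

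**Figure D2:**
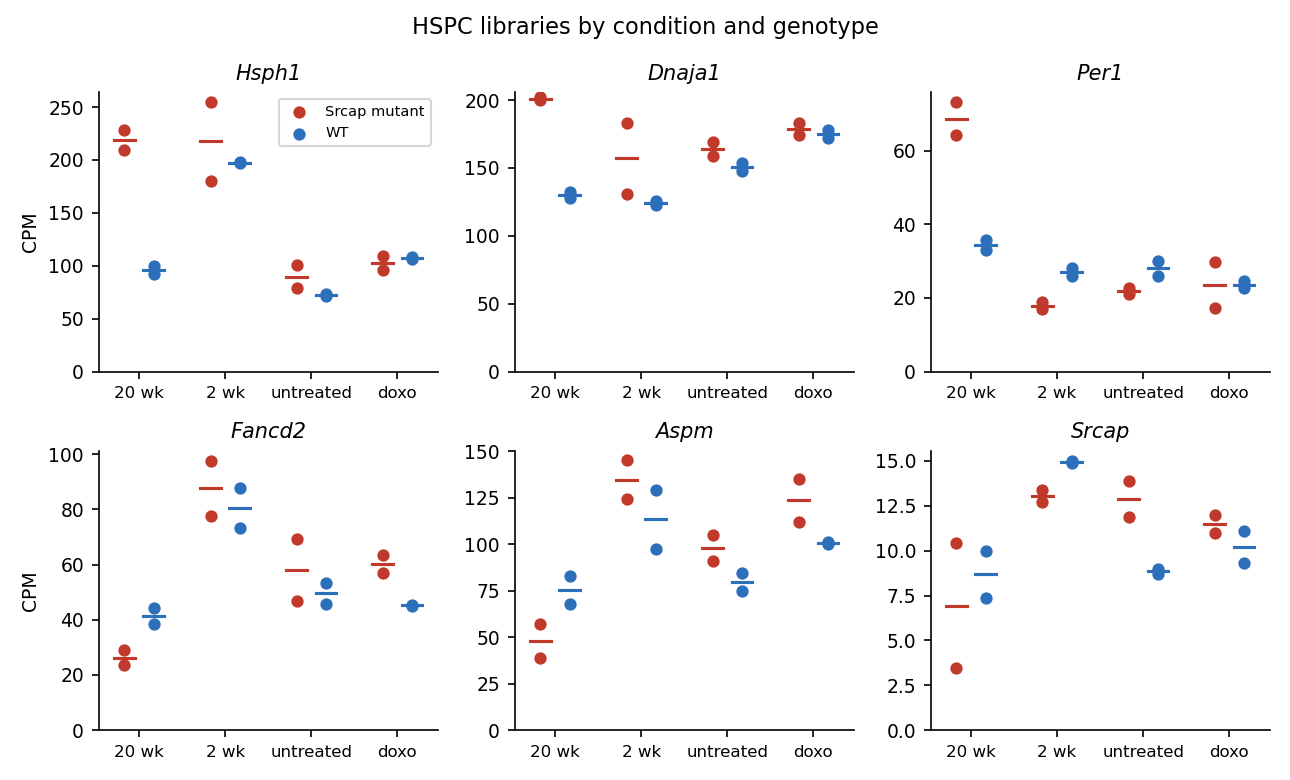
CPM of 6 genes in all 16 HSPC libraries, with mutant points (red) left of WT points (blue) in each condition and bars at the group means of 2. At 20 weeks the mutant points of Hsph1, Dnaja1 and Per1 lie above and those of Fancd2 and Aspm below the WT points, while Srcap overlaps.

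Beyond the chaperones, the genes of smallest p that were higher in mutant cells included a clock gene and a steroid-induced gene. Per1 (chr11:68986043-69000786, GRCm39), a circadian repressor that glucocorticoids also induce, had 64.3 and 73.1 CPM in mutant and 33.1 and 35.8 CPM in WT. Its log2 change was 1.0 ± 0.21, with an edgeR adjusted p of 0.698 and a DESeq2 adjusted p of 0.0281. In the other conditions its log2 change was -0.60 at 2 weeks, -0.35 untreated and 0.00 after doxorubicin, and the 20-week effect exceeded their mean by 1.31 ± 0.24 (edgeR adjusted p = 0.244). Tsc22d3, encoding the glucocorticoid-induced leucine zipper protein, had 281 and 271 CPM in mutant and 183 and 149 CPM in WT. For both genes each mutant library lay above each WT library, which the rule for naming them required.

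Per1 is a clock gene, so the other clock genes were read in a list added after the values were seen. Of 19 listed, 9 were higher and 10 lower, with a median log2 change of 0.00. Per2 had 13.3 and 16.3 CPM in mutant and 18.5 and 17 CPM in WT. Cry1 had 28.8 and 29.8 CPM in mutant and 25.2 and 29.4 CPM in WT, and Tef had 50.2 and 49.7 CPM in mutant and 51.3 and 48.9 CPM in WT. Nfil3, a clock-linked repressor needed for natural killer cell development, had 14.4 and 9.30 CPM in mutant and 7.47 and 6.99 CPM in WT (unadjusted p = 0.0182). Per1 and Nfil3 were the only listed clock genes at unadjusted p under 0.05, both higher, against 1.89% of all genes.

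Signalling and growth-restraint genes stood beside them. Cxcr4, the receptor that holds stem cells in marrow, had 320 and 286 CPM in mutant and 224 and 191 CPM in WT (log2 change 0.54 ± 0.14). Of 19 marrow homing and retention genes, 9 were higher and 10 lower, with a median log2 change of -0.11. Pik3ip1, a membrane inhibitor of PI3 kinase, had 128 and 118 CPM in mutant and 86.3 and 74.5 CPM in WT. Btg1, an antiproliferative cofactor of mRNA deadenylation, had 167 and 148 CPM in mutant and 95.2 and 110 CPM in WT. In Cxcr4, Pik3ip1 and Btg1 both mutant libraries lay above both WT libraries, as the rule for naming them required, and none was called. Cybc1, needed for the phagocyte oxidase, had 201 and 156 CPM in mutant and 122 and 117 CPM in WT. P4ha1, a collagen prolyl hydroxylase subunit, had 70.1 and 74.2 CPM in mutant and 48.9 and 48.6 CPM in WT. The remaining genes of smallest p on the higher side, Tmem267, Kcnj2, Rps27rt and Slc26a11, stood at under 21 CPM in every library, and Rps27rt is a retrocopy that may share reads with Rps27.

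The genes of smallest p that were lower in mutant cells included several that act in cell division and DNA repair. Aspm, which organises spindle poles, had 38.8 and 57.1 CPM in mutant and 67.7 and 82.6 CPM in WT (log2 change -0.65 ± 0.19). Ect2, the exchange factor that starts cytokinesis, had 50.5 and 65.5 CPM in mutant and 81.0 and 92.1 CPM in WT. Arhgap11a, expressed in dividing cells, had 62.6 and 84.9 CPM in mutant and 106 and 125 CPM in WT. In these genes both mutant libraries lay below both WT libraries, as the rule for naming them required, and mutant replicate 1 was the lowest of the 4. Fancd2, the hub of the Fanconi anaemia crosslink repair pathway, had 23.5 and 28.9 CPM in mutant and 38.3 and 44.3 CPM in WT (log2 change -0.65 ± 0.19). None of these was called.

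The other genes of smallest p on the lower side have varied roles. Slfn9, a member of the interferon-linked Schlafen family, had 38.7 and 62.0 CPM in mutant and 97.6 and 81.8 CPM in WT. Axl, a receptor tyrosine kinase for apoptotic-cell ligands, had 21.9 and 25.7 CPM in mutant and 41.2 and 39.9 CPM in WT. Thbd, encoding thrombomodulin, had 14.1 and 20.5 CPM in mutant and 29.1 and 37.6 CPM in WT. The groups did not overlap in any of these, as the rule for naming them required. Thbd had log2 changes of 0.11 to 0.37 in the other conditions against -0.95 at 20 weeks. Ighj3, an immunoglobulin joining segment that the removal rule leaves in, had 33.5 and 35.8 CPM in mutant and 75.4 and 104 CPM in WT. Its edgeR adjusted p was 0.44 and its DESeq2 adjusted p 0.00659. Stag3, Lipo3, Tiam2, Gpcpd1, Akr1e1, Glb1l and Tnfsf8 complete that list, with log2 changes between -1.85 and -0.68. The -1.85 is that of Stag3, which had 0.935 and 0.827 CPM in mutant and 1.63 and 4.74 CPM in WT, and it was -0.88 without WT replicate 2.

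The cell division genes were then read as a list of 44 G2 and M phase genes, all tested. This list too was chosen with earlier results of these data known. Of the 44, 39 were lower and 5 higher in mutant cells, against 50.2% of all genes lower. There were 6 at unadjusted p under 0.05, all lower, against 2.1% of all genes, and none was called. For 19 of 44 both mutant libraries lay below both WT libraries, and for none above both, against 13.2% and 13.6% of all genes. The median log2 change was -0.21, and it ran from -0.31 to -0.13 when each library was left out. Summed over the list, the level was 4240 and 3940 CPM in mutant and 4450 and 5290 CPM in WT. Mutant libraries were thus lower, but WT replicate 1 stood nearer to the mutant libraries than to the other WT library.

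Within the list, Foxm1, the transcription factor that drives mitotic genes, had 47.4 and 53.5 CPM in mutant and 57.0 and 82.3 CPM in WT (log2 change -0.47 ± 0.17). Without WT replicate 2 its log2 change was -0.18, and without WT replicate 1 it was -0.71. Kif11, the motor that separates spindle poles, had 136 and 157 CPM in mutant and 198 and 207 CPM in WT. Top2a, which untangles chromosomes, had 515 and 563 CPM in mutant and 671 and 756 CPM in WT. In Foxm1, Kif11 and Top2a the groups did not overlap. Cenpf, a kinetochore protein, had 49.0 and 64.7 CPM in mutant and 76.6 and 84.8 CPM in WT. Cdc25c, the phosphatase that activates CDK1, had 13.2 and 11.7 CPM in mutant and 20.1 and 15.2 CPM in WT. Mki67, the proliferation marker, had 373 and 460 CPM in mutant and 503 and 611 CPM in WT, with an unadjusted p of 0.103. Others overlapped: Plk1, the mitotic polo kinase, had 52.2 and 52.6 CPM in mutant and 48.8 and 83.1 CPM in WT, and its log2 change of -0.33 became 0.10 without WT replicate 2.

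In the other conditions most of these 44 genes were higher in mutant cells. The number higher was 38 at 2 weeks, 43 untreated and 43 after doxorubicin, and the median log2 change was 0.18, 0.23 and 0.32 in that order. The difference between the 20-week effect and the mean of the others had a median of -0.45 and was at unadjusted p under 0.05 for 23 of 44, against 5.91% of all genes, and none was called. Leaving out WT replicate 2 of the 20-week group gave 7 of 44, leaving out mutant replicate 2 gave 14, mutant replicate 1 gave 24 and WT replicate 1 gave 29. For Aspm the difference was -0.93 (unadjusted p = 0.00033, edgeR adjusted p above 0.05), with a log2 change of 0.25 to 0.30 in the other conditions. For Fancd2 it was -0.91 (unadjusted p = 0.000521). One untreated WT library held 22400 CPM of neutrophil markers, against 55.8 to 3480 CPM in the other 11 HSPC libraries outside the 20-week groups. Without it the count was 24 of 44.

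**Figure D3:**
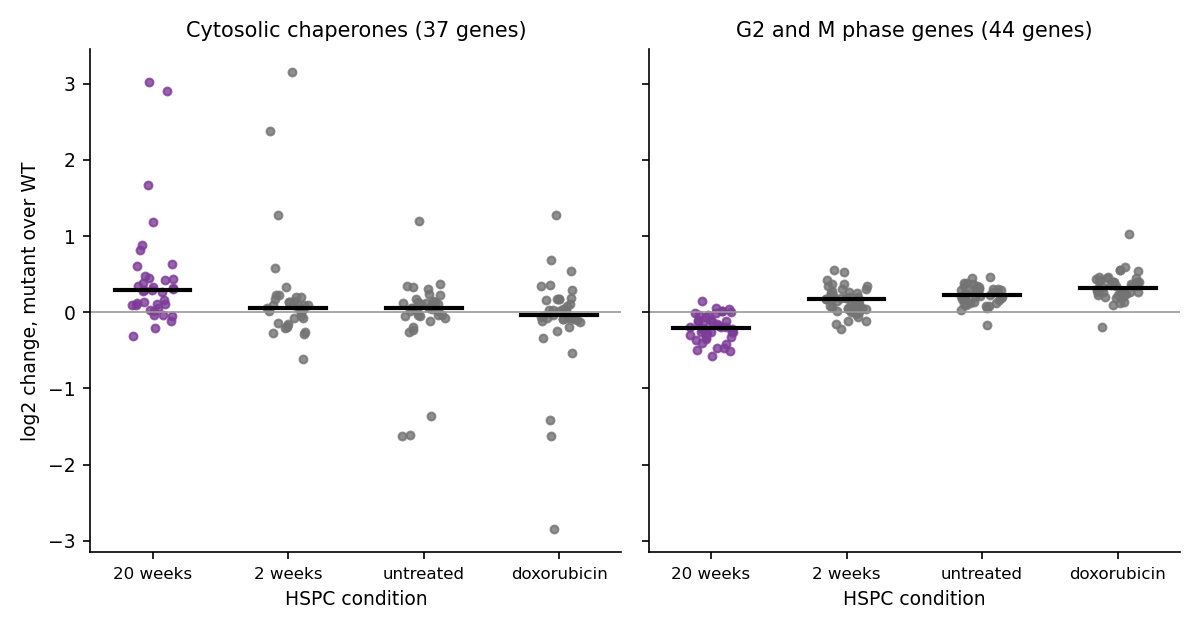
Each point is 1 gene's log2 change, mutant over WT, in 1 HSPC condition, and black bars are medians over the list. The chaperones have their highest median at 20 weeks, 0.29, and the G2 and M phase genes have a negative median, -0.21, at 20 weeks and positive medians of 0.18 to 0.32 elsewhere.

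The 48 S phase and replication genes had a median of -0.08, which was 0.01 without mutant replicate 2. Of them 31 were lower, with 1, Pola1, at unadjusted p under 0.05, against 2.1% of all genes. Of 36 homologous recombination genes, 26 were lower, with a median of -0.07. Blm, the Bloom helicase, had 34.4 and 41.1 CPM in mutant and 51.6 and 48.3 CPM in WT (unadjusted p = 0.0398). It was the 1 gene of these 36 at unadjusted p under 0.05, against 2.1% of all genes lower. Among 21 Fanconi anaemia and translesion genes 12 were lower. Fan1 and Fancd2 were lower and Mad2l2 higher at unadjusted p under 0.05, against 2.1% and 1.89% of all genes. Fan1, a nuclease of crosslink repair, had 7.19 and 12.2 CPM in mutant and 17 and 14.3 CPM in WT. Mad2l2, an adaptor of translesion synthesis and end protection, had 33.2 and 27.1 CPM in mutant and 22.1 and 21.8 CPM in WT. Of 19 G1 cyclins and inhibitors 13 were lower, with a median of -0.09 that was -0.01 without WT replicate 2. Of these 19, 2 were lower at unadjusted p under 0.05, against 2.1% of all genes. These 2 encode pocket proteins that hold cells in G1. Rb1 had 31.7 and 48.0 CPM in mutant and 55.3 and 58.8 CPM in WT, and Rbl1 had 97.8 and 129 CPM in mutant and 154 and 140 CPM in WT. The 36 p53 targets had a median of -0.03 with none at unadjusted p under 0.05.

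Genes that define stem cells and lineages were read next. Of 47 stem cell identity genes, 27 were higher and 20 lower, with a median log2 change of 0.05 that was 0.22 without WT replicate 1 and -0.04 without WT replicate 2. Both mutant libraries lay above both WT libraries for 12 of them and below both for 1, against 13.6% and 13.2% of all genes. At unadjusted p under 0.05, Pdzk1ip1, Cish, Gfi1 and Robo4 were higher and Igf2bp3 lower, against 1.89% and 2.1% of all genes. Pdzk1ip1, a marker of stem cells with transplant capacity, had 93.4 and 67.6 CPM in mutant and 58.3 and 40.4 CPM in WT (log2 change 0.71 ± 0.23). Its log2 change was -0.60 to -0.24 in the other conditions, and the difference of 1.18 had an unadjusted p of 0.000295. Gfi1, a repressor that restrains stem cell cycling, had 52.2 and 47.3 CPM in mutant and 38.3 and 36.2 CPM in WT. Cish, a feedback inhibitor of STAT5 signalling, had 41.0 and 42.6 CPM in mutant and 28 and 27.0 CPM in WT. Robo4, an adhesion receptor of marrow stem cells, had 41.1 and 41.1 CPM in mutant and 27.9 and 26.1 CPM in WT. Igf2bp3, a fetal RNA-binding protein, had 2.15 and 2.10 CPM in mutant and 2.80 and 4.74 CPM in WT.

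Of 28 megakaryocyte and platelet genes, 16 were higher and 12 lower, with a median of 0.04 that was -0.17 without mutant replicate 2. Nfe2, a platelet transcription factor, had 291 and 211 CPM in mutant and 207 and 191 CPM in WT. Itgb3, the platelet fibrinogen receptor subunit, had 62.1 and 76.3 CPM in mutant and 45.1 and 51.5 CPM in WT. Its 20-week effect of 0.52 differed from log2 changes of -0.95 to -0.56 elsewhere (difference 1.26, unadjusted p = 0.00102). Of 21 early lymphoid genes 15 were lower, with a median of -0.16, which turned to 0.03 with 12 of 21 higher without WT replicate 2. Rag1, which cuts antigen receptor genes, had 97.4 and 149 CPM in mutant and 157 and 283 CPM in WT, and Mef2c had 176 and 266 CPM in mutant and 272 and 325 CPM in WT. Cd27 went the other way, with 208 and 182 CPM in mutant and 165 and 161 CPM in WT. Erythroid genes were higher for 24 of 30 and MHC class II genes for 11 of 13, with medians of 0.14 and 0.24, and none of either was at unadjusted p under 0.05. Cd74, the class II invariant chain, had 2710 and 2800 CPM in mutant and 1750 and 2320 CPM in WT, and the B cell list, with a median of 0.16, was also higher for 19 of 27. The part of B cells in the class II difference was not tested.

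The 30 monocyte, macrophage and dendritic cell genes had a median log2 change of -0.24. Of them 20 were lower, 1 at unadjusted p under 0.05, against 2.1% of all genes. Without WT replicate 2 the median was 0.01 and 15 of 30 were higher, so the direction rests on that library. That gene, Vcam1, an adhesion molecule of marrow macrophages and stroma, had 15.6 and 21.4 CPM in mutant and 34.8 and 29.9 CPM in WT. The 6 monocyte and macrophage markers summed to 93.5 and 73.2 CPM in mutant and 105 and 103 CPM in WT. Summed over the list of 30, the groups overlapped, with 1150 and 1220 CPM in mutant and 1130 and 1410 CPM in WT. The part of such cells in the values of Vcam1 and Axl was not tested. Among 29 T and NK cell genes, 18 were higher and 11 lower, with a median log2 change of 0.12. With mutant replicate 1 dropped this median fell to -0.15, and with mutant replicate 2 dropped it rose to 0.35. Klrb1c and Eomes were higher and Cd4 and Trbc2 lower at unadjusted p under 0.05, against 1.89% and 2.1% of all genes. Cd4 had 1.70 and 3.11 CPM in mutant and 7.27 and 6.11 CPM in WT. Klrb1c had 11.7 and 9.70 CPM in mutant and 4.73 and 6.23 CPM in WT. T cell markers summed to 80.8 and 53.6 CPM in mutant and 64.5 and 70.5 CPM in WT, so the groups overlapped. Neutrophil markers summed to 130 and 50.7 CPM in mutant and 36.0 and 56.9 CPM in WT. Of 31 genes mutated in clonal hematopoiesis 24 were lower, with a median of -0.12 that became 0.00 without mutant replicate 1. Dnmt3a, a DNA methyltransferase, had 69.5 and 92.1 CPM in mutant and 97.3 and 117 CPM in WT (unadjusted p = 0.0132). It was the 1 gene of these 31 at unadjusted p under 0.05, against 2.1% of all genes lower.

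Mutant replicate 1 stood apart from the other 3 libraries in genes of short and of long transcripts. Among 12194 genes of average log2 CPM over 1, the shortest quartile by exon length (median 1.9 kb) lay 0.18 above the 4-library mean on the log2(CPM + 1) scale in mutant replicate 1, against -0.09 in mutant replicate 2. In the WT libraries it lay at -0.05 and -0.03. The longest quartile (median 9.11 kb) was at -0.21 and 0.10 in the mutant libraries, replicate 1 given first, against 0.04 and 0.08 in the WT libraries. A fit that keeps mutant replicate 1 as the only mutant library called 338 genes, 312 of them lower with a median exon length of 9.73 kb, against 3.15 kb for all genes tested. Of those 312, both mutant libraries lay below both WT libraries for 99. Srcap has 15.8 kb of exon. With each library's trend with exon length removed, its log2 change was -0.24 (unadjusted p = 0.435), against -0.33 with the trend left in.

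**Figure D4:**
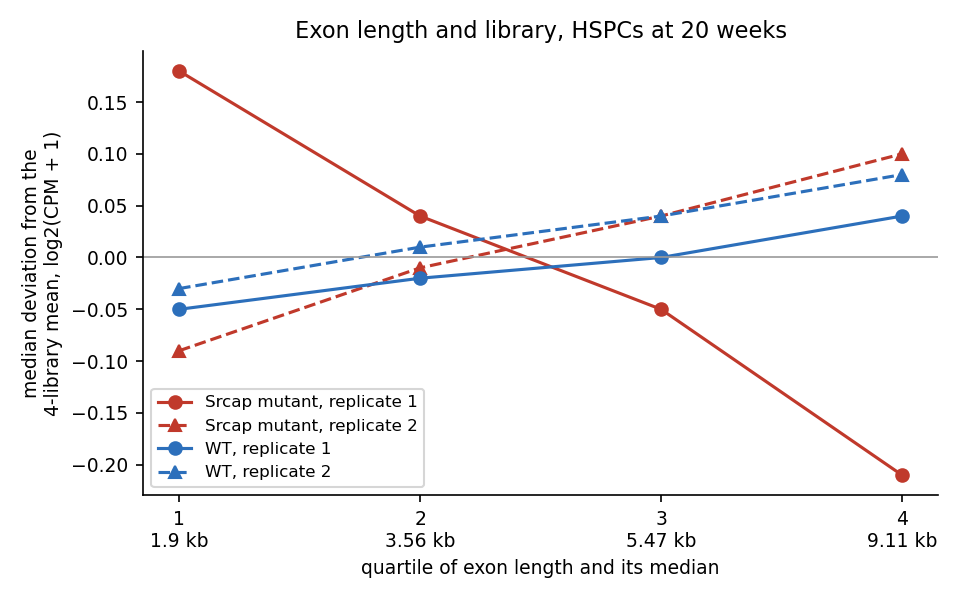
Median deviation of each 20-week library from the 4-library mean on the log2(CPM + 1) scale, for genes in 4 quartiles of exon length. Mutant replicate 1 (solid red) runs from 0.18 in the shortest to -0.21 in the longest quartile, and the other libraries stay within -0.09 and 0.10.

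Lists of short or long genes moved with this library. Ribosomal protein genes, with a median exon length of 1.75 kb, were higher for 78 of 82, with a median log2 change of 0.23. Their share of counts was 13.1 and 8.86% in mutant and 9.56 and 9.50% in WT, and the median turned to -0.13 when mutant replicate 1 was left out and was 0.49 when mutant replicate 2 was. Rps19, for example, had 1810 and 1130 CPM in mutant and 1050 and 1140 CPM in WT. The 71 nuclear genes of oxidative phosphorylation had a median of 0.11, which became -0.17 without mutant replicate 1. After an offset that removes each library's trend with exon length, 41 of these 71 were higher, with a median of 0.02, and the ribosomal protein median was 0.13. The chaperone median was then 0.25, with 32 of 37 higher. At unadjusted edgeR p under 0.05 there were 9 chaperones, but not the same 9, since Bag1 and Stip1 were at 0.0511 and 0.0707. The G2 and M phase median was -0.18, with 41 of 44 lower. Of these, 5 were at unadjusted edgeR p under 0.05, against 6 before, and Cenpf was at 0.0528. Hsph1 had a log2 change of 1.25 in that fit and an edgeR adjusted p of 0.00144, and its 20-week effect differed from the other conditions (edgeR adjusted p = 0.0434). At unadjusted p under 0.05 in that fit, 0 clonal hematopoiesis and 0 homologous recombination genes were lower, against 1 each before. The number lower went from 2 to 0 for early lymphoid genes and from 1 to 0 for stem cell identity genes. Of endoplasmic reticulum stress genes 1 was higher, against 3 before. The number lower rose from 1 to 2 for S phase genes and stayed at 2 for Fanconi anaemia and for G1 genes.

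**Figure D5:**
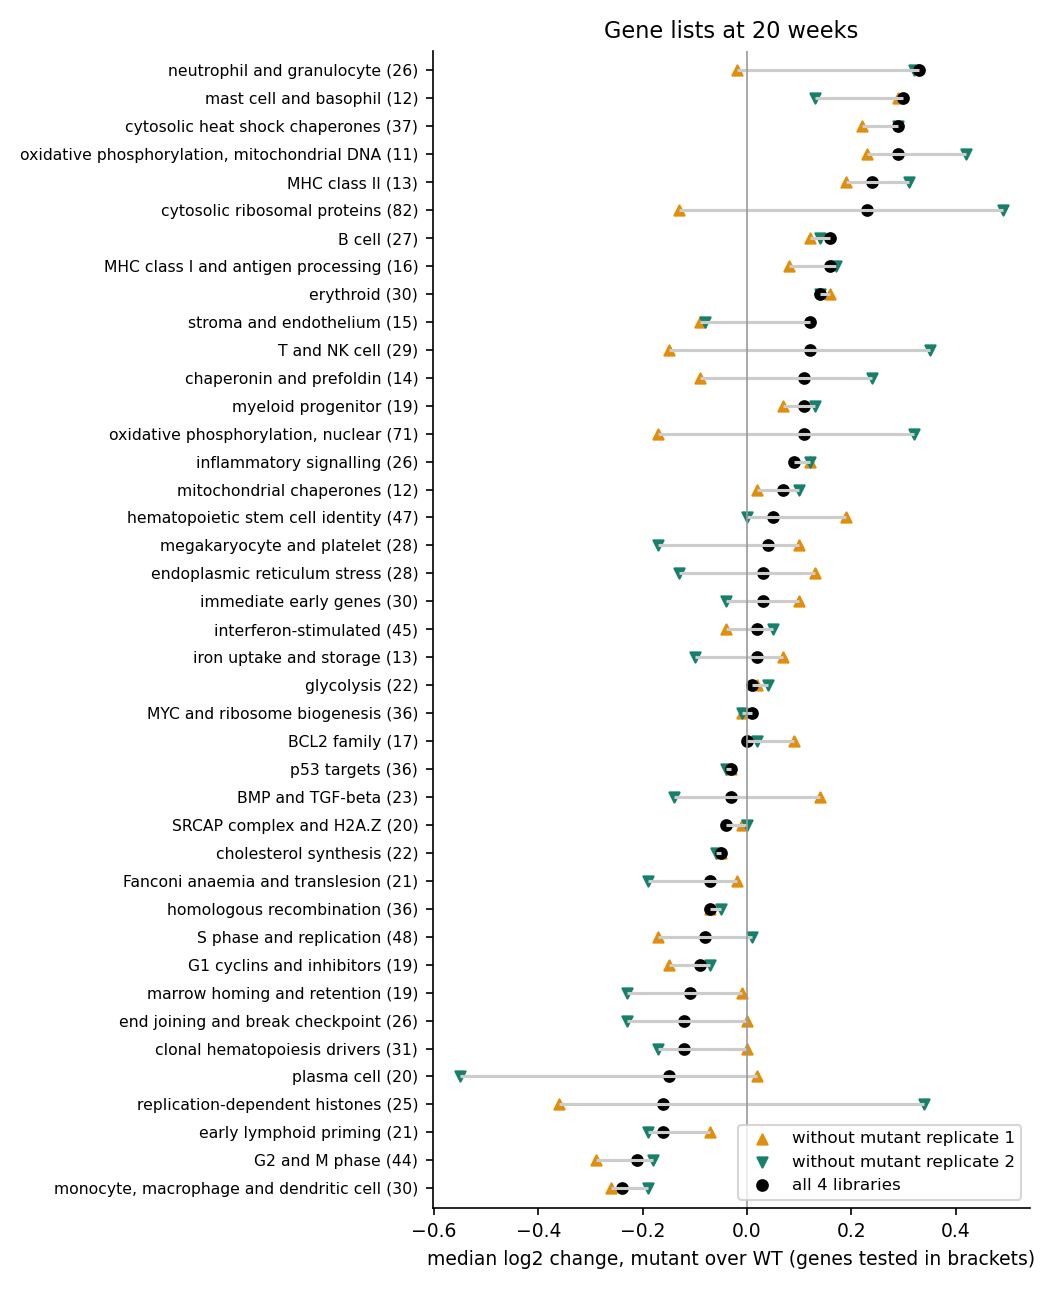
Median log2 change, mutant over WT at 20 weeks, of 41 gene lists, with all 4 libraries (black) and without mutant replicate 1 (orange) or 2 (green); the number of genes tested is in brackets. The chaperones stay between 0.22 and 0.29 and the G2 and M phase genes between -0.29 and -0.18, while the ribosomal proteins run from -0.13 to 0.49.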

How the data were processed

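RNA was measured by stranded mRNA-seq, and the deposited files hold raw read counts per gene. Per the file headers, the authors counted read pairs over exons with featureCounts 2.0.1, reverse-stranded, on GENCODE M28, and per the submitters' processing notes they aligned with STAR. From these counts, 16 HSPC libraries and 55414 genes were read. Immunoglobulin variable and constant genes and Jchain, 362 in all, were removed. Symbols came from a table of gene IDs for 52081 genes, and 3333 had none. Coordinates of genes are GRCm39.

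The main test was edgeR 4.0.16 (R 4.3.3), robust quasi-likelihood, TMM scaling, filterByExpr, 1 mean per group over 8 HSPC groups, two-sided, with Benjamini-Hochberg adjustment over 19121 genes and a threshold of 0.05. DESeq2 1.42.0 was an alternative. The procedure was tested on simulated data. The common biological coefficient of variation was 0.346. The 20-week libraries held 39.4 to 58.8 M counts in the genes tested, so counting error is small except in genes of few counts, such as Hspa1a and Stag3. Having 2 libraries a group also limits precision.

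The members and gene lists were chosen with earlier results of these data known. Named were Srcap, called genes, the 15 genes of smallest p in each direction (average log2 CPM of at least 1, a gene symbol that is no gene model, groups not overlapping), up to 4 members a list plus its defining members, and cell type markers. Members outside this rule (Dnaja2, Hspa4, Bag1, Bag3, Stip1, Chordc1, Hsf1 and others of the chaperone list, and clock genes) were named after their values were seen. Dnajb3, Capn11, Snord72 and Snord32a were named from the DESeq2 calls. Fits were also made without each 20-week library, without an untreated WT library rich in neutrophil markers, and with the trend in exon length removed by a lowess offset per library.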

Additional observations from a re-analysis of the deposited data

How the results depend on the processing

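Hsph1 was the 1 gene called with immunoglobulin genes kept, with DESeq2's scaling in edgeR, with joining segments or B-lineage lists removed, and with the exon-length trend removed. DESeq2 called 13 genes, no count filter 34, and a fit of the 4 libraries alone 0, with 431 at unadjusted p under 0.05. Leaving out 1 library gave 0 to 338 calls, of which 338 were without mutant replicate 2. For the difference from the other conditions, DESeq2 called 20, no filter 185, the exon-length fit 1, and leaving out 1 library 0 to 276. For the difference from 2 weeks, DESeq2 called 63, no filter 196, the transplanted groups alone 1, and leaving out 1 library 0 to 195. A fit of the compared groups alone could not be made for the difference from the other conditions, since it needs them all. Medians ran from 0.22 to 0.29 for chaperones, -0.31 to -0.13 for G2 and M phase genes and -0.13 to 0.49 for ribosomal proteins when 1 library was left out. Of 84 genes checked, 3 changed sign: Srcap ran from -1.35 to 0.27, Hsp90aa1 from -0.03 to 0.22 and Plk1 from -0.67 to 0.10. The cause was not tested. The 84 do not take in every gene given above. H2afz, for example, lay above both WT libraries in mutant replicate 1 and below both in mutant replicate 2. Joining segments, B-lineage lists, exon length and the untreated WT library were chosen after seeing the data.

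Replicate numbers of the labels, which the file headers do not share for every library, did not pair the samples: deviations of same-numbered mutant and WT libraries correlated at 0.0176 over 12194 genes. With the replicate block, 1 gene was called at 20 weeks and 0 in either difference, and Hsph1 had an edgeR adjusted p of 0.0484.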
